A study of Mus musculus with 8 samples.

Results

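The genes described here encode the aminoacyl-tRNA synthetases, the enzymes that join each amino acid to its transfer RNA. They were taken by symbol from the deposited expression table, and all 36 were found, each in 1 of the 54232 gene rows. Genes whose symbol ends in s2 encode enzymes of the mitochondrion (16 genes), and the others encode the enzymes of the cytosol (20 genes). RNA had been sequenced from mouse cells of C57BL/6 background, labelled female germline stem cells (cultured mitotic germ cells of the ovary), after 3 h with the solvent DMSO (3 libraries) or with C28 (3 libraries), a compound that the labels give by code name alone and that the sample names write as 028. No allele, transgene or second agent is named for either group. A pair of H3K27ac libraries of the same cells, 1 control and 1 C28, was not used, because their peaks are in another genome build than the annotation at hand.

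A synthetase first activates its amino acid with ATP and then passes it to the end of the matching tRNA, and the charged tRNA is carried to the ribosome by an elongation factor. Most amino acids have a pair of nuclear genes, with 1 enzyme for the cytosol and 1 that is imported into mitochondria to serve the ribosomes there. Gars and Kars make the glycyl and lysyl enzymes of both compartments from the same gene, and mitochondrial glutaminyl-tRNA is made by an amidating enzyme instead of a synthetase. When tRNAs stay uncharged, the kinase GCN2 phosphorylates the translation factor eIF2, which favours translation of the transcription factor ATF4. Several cytosolic synthetase genes are known targets of ATF4.

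The RNA libraries held 16930212 to 19197376 reads on genes. Values are normalized counts, that is reads on a gene divided by 1 size factor per library, with no correction for gene length, so levels are compared between libraries and not between genes. The labels do not say whether the 3 replicates of a group came from separate cultures, so the p-values reflect the scatter of these 6 libraries, and that scatter may be technical. Of 6 germline markers, Kit (17500 to 24074) and Ifitm3 (80.4 to 285.1) averaged at least 10 normalized counts. Pou5f1 and Dppa3 had 0 reads in every library, Ddx4 lay between 0 and 1.91, and Dazl between 0 and 0.95. Among 6 leukocyte and mast cell markers, 4 averaged at least 10: Ptprc (6568 to 8917), Fcer1g (1271 to 1691), Cpa3 (5016 to 8401) and Gata2 (21760 to 26194). Fcer1a had 0 reads and Ms4a2 lay between 0 and 2.15. The summed leukocyte and mast cell markers lay between 39437 and 41468 with DMSO and between 37384 and 39640 with C28. Libraries with replicate number 1 stood apart from numbers 2 and 3 in both groups, and same-numbered libraries deviated together. A second fit therefore carried the replicate number as a block, which compares each C28 library with the DMSO library of the same number. Values of that fit are given where they change a call.

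The question for the synthetases was whether C28 changed their RNA within 3 h, and whether the enzymes of the cytosol and of the mitochondrion changed alike. All 36 genes passed the filter on low values, and none was at 0 in any library. Without the block no synthetase gene passed the threshold, an adjusted p of 0.05 by limma with Benjamini-Hochberg adjustment over 19054 genes. In that fit 0.121% of all genes rose and 0.0157% fell, or 0.136% in all. At an unadjusted p under 0.05 limma had 5 cytosolic genes, all higher with C28, and 1 mitochondrial gene, which was lower. Over all genes 4.43% were higher and 3.4% lower at that p, or 7.83% in all, so the mitochondrial count was near the background. EdgeR and DESeq2 without the block also called 0 of the 36, with 28 and 182 genes called in all. With the replicate block 6 of 20 cytosolic genes rose and 0 fell, whereas 0 of 16 mitochondrial genes rose and 1 fell. The background of that fit was 2.55% of all genes rising and 2.25% falling, or 4.8% in either direction. In these bulk samples less RNA per cell and fewer cells of a type cannot be told apart.

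The 6 cytosolic genes that rose with the block were Cars, Aars, Sars, Nars, Iars and Tars, with rises of 1.16-fold to 1.28-fold. Cars (ENSMUSG00000010755) encodes the cysteinyl enzyme and had the largest fold change of the 36. It was at 2419, 2079 and 2047 normalized counts with DMSO (replicates 1 to 3) and at 2981, 2784 and 2622 with C28. Every C28 library lay above every DMSO library. The means were 2182 ± 206 and 2796 ± 180 (SD, n = 3 each), a log2 fold change of 0.36 with an SE of 0.09, or 0.05 with the block. The limma adjusted p was 0.316 without the block and 0.00199 with it.

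Aars (ENSMUSG00000031960), the alanyl enzyme, was at 6573, 5356 and 5583 normalized counts with DMSO and at 7831, 6658 and 6809 with C28. The groups did not overlap, although the lowest C28 library exceeded the highest DMSO library by little. The log2 fold change was 0.28 (SE 0.10, and 0.04 with the block), with a limma adjusted p of 0.528, and 0.0032 with the block. Sars (ENSMUSG00000068739), the seryl enzyme, whose charged tRNA also starts selenocysteine synthesis, was at 9498, 7843 and 7054 with DMSO and at 10680, 9541 and 8421 with C28. Here the groups overlapped: replicate 1 was highest and replicate 3 lowest in both, and each C28 library lay above its DMSO partner. Its log2 fold change was 0.24 (SE 0.13, and 0.04 with the block), with a limma adjusted p of 0.748, and 0.00994 with the block.

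Nars (ENSMUSG00000024587), the asparaginyl enzyme, was at 12608, 10071 and 10205 normalized counts with DMSO and at 13923, 13038 and 12221 with C28. The groups overlapped through DMSO replicate 1, which stood above C28 replicate 3. Its log2 fold change was 0.26, with a limma adjusted p of 0.586, and 0.0122 with the block. Iars (ENSMUSG00000037851), the isoleucyl enzyme and a part of the multi-synthetase complex, was at 5927, 5778 and 5630 with DMSO and at 6641, 6789 and 6591 with C28. These groups were tight and did not overlap. Its log2 fold change was 0.21, with a limma adjusted p of 0.353, and 0.0171 with the block. Tars (ENSMUSG00000022241), the threonyl enzyme, was at 4649, 4455 and 4396 with DMSO and at 4895, 5641 and 5308 with C28. All C28 libraries were above all DMSO libraries, and the gap was smallest in replicate 1. Its log2 fold change was 0.23, with a limma adjusted p of 0.454, and 0.0386 with the block.

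The calls depended on which pairs entered. With pair 1 left out, limma with the block called 8 cytosolic genes, the 6 above with Gars and Lars, and 853 genes in all. With pair 2 or pair 3 left out it called 0 of the 36, with 50 and 207 genes in all. The directions stayed, and the sizes moved more for some genes than for others. With a pair left out, the log2 fold change of Cars lay between 0.33 and 0.39 and that of Aars between 0.27 and 0.30. That of Tars was 0.17 without pair 2 and 0.31 without pair 1, and that of Nars 0.20 and 0.32. In the authors' deposited table, which gives shrunken fold changes, the adjusted p of Cars was 0.072, the lowest of the 36, and its log2 fold change was 0.31.

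**Figure D1:**
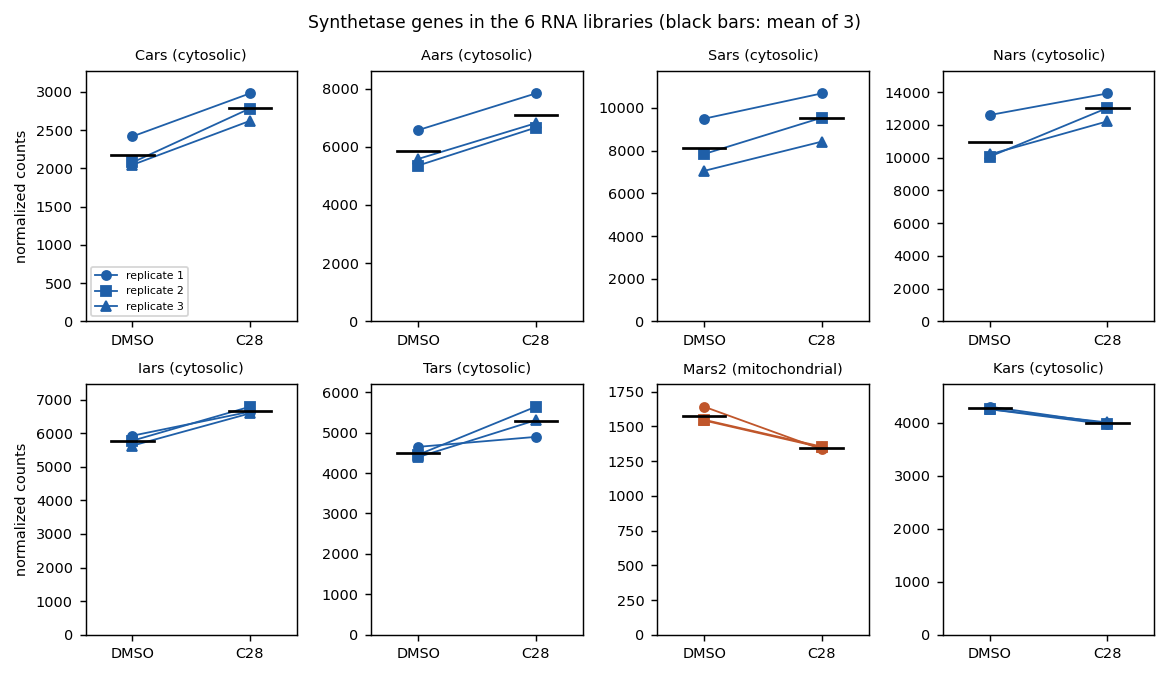
Normalized counts (vertical axes, from 0) of 6 cytosolic genes that rose with the replicate block, of Mars2 and of Kars in the DMSO and C28 libraries. Each line joins the libraries of 1 replicate number and black bars are means of 3. Replicate 1 is on top in both groups for Cars, Aars, Sars and Nars, every line of the 6 risers points up, and the lines of Mars2 and Kars point down.

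The promoters of the members were searched for short sequence motifs, whether or not a gene moved. RefSeq promoter sequences (GRCm38.p6, 250 bases before to 50 after the start) were matched by symbol for 26 of the 36 genes, 12 cytosolic and 14 mitochondrial; Cars and Nars were not among them. The letters TGATGNAA, the core of the C/EBP-ATF response element bound by ATF4, were searched on both strands. They occurred in 5 of the 12 cytosolic promoters and in 0 of the 14 mitochondrial promoters, against 4.51% of 27025 genes with such a window. The 5 were Aars, Gars, Iars, Tars and Yars. Of the 4 genes with a promoter that rose with the block 3 held these letters. Of the 8 cytosolic genes with a promoter that did not rise 2 held them. The stretches printed here show these 5, then Sars, which rose without a match, and Mars2, which fell without a match. Each is written 5′ to 3′ in the direction of the gene and ends 20 bases after the start, with capitals marking a match on either strand:
Aars, chr8:111033712-111033861, + strand: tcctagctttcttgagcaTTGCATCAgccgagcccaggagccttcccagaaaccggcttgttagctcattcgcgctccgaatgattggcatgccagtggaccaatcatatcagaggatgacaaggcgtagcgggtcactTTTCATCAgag
Iars, chr13:49682070-49682149, + strand: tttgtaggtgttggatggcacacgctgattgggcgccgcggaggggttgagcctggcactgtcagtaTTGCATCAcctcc
Tars, chr15:11399639-11399718, - strand: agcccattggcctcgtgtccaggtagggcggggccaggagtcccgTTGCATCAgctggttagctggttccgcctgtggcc
Gars, chr6:55037941-55038020, + strand: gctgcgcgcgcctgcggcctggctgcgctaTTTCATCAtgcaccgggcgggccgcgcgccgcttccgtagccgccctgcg
Yars, chr4:129189843-129189922, + strand: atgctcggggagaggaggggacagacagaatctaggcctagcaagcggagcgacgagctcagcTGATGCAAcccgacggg
Sars, chr3:108445240-108445319, - strand: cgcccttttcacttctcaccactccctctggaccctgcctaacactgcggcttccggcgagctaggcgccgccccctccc
Mars2, chr1:55237117-55237196, + strand: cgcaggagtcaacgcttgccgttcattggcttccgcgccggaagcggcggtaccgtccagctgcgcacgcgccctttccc

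Counting bases before the start as negative and the first transcribed base as 1, the matches of Aars began at -112 and at 10. That of Gars began at -30, that of Tars at -15, that of Iars at 8 and that of Yars at 4. Iars, Tars and the upstream match of Aars read TTGCATCA in the direction of the gene, and Yars holds the same letters on the other strand, TGATGCAA. The E-box CACGTG, which is bound by Myc and related factors, occurred in 4 of 12 cytosolic promoters (Aars, Farsb, Iars and Tars) and 1 of 14 mitochondrial promoters (Ears2), against 8.09% of all genes. The antioxidant element core TGACNNNGC, bound by NRF2, occurred in Aars and Iars and in 3 mitochondrial promoters (Aars2, Lars2 and Nars2), against 14.0% of all genes. Of the 4 risers with a promoter, 3 held the E-box and 2 the antioxidant core. Of the 8 other cytosolic promoters, 1 held the E-box and 0 the antioxidant core. Such matches describe letters in a window and do not show binding. No match of 1 motif shared a base with a match of another motif in these genes.

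Gars and Lars came next. Gars, the glycyl enzyme of both compartments, was at 10378, 8920 and 8275 normalized counts with DMSO and at 10840, 10754 and 9360 with C28. Its log2 fold change was 0.17, with a limma adjusted p of 0.773, and 0.0741 with the block. Lars, the leucyl enzyme, which is also known as a leucine sensor of mTORC1, was at 5726, 5059 and 4945 with DMSO and at 6057, 5964 and 5453 with C28. Its log2 fold change was 0.15, with a limma adjusted p of 0.73, and 0.0943 with the block. The groups of both genes overlapped, and both were higher with C28 in 3 of 3 same-numbered pairs. With edgeR and the block, both passed the threshold, which made 8 cytosolic genes. That fit called more genes over the whole table, with 707 of 19054 up and 625 down. Limma with the block had 485 up and 429 down.

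Another 4 cytosolic genes lay slightly above 0: Yars, Mars, Eprs and Wars, at log2 fold changes of 0.09, 0.07, 0.06 and 0.05. Eprs, the fused glutamyl and prolyl enzyme, was at 11365, 10978 and 11160 normalized counts with DMSO and at 11767, 11420 and 11628 with C28. Its groups did not overlap, yet the difference was small and did not pass (limma adjusted p 0.887, and 0.508 with the block). Its 95% interval ran from -0.03 to 0.14 on the log2 scale with the block, and from -0.06 to 0.18 without it.

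The other 8 cytosolic genes, Rars, Farsb, Dars, Vars, Qars, Hars, Kars and Farsa, had log2 fold changes between -0.13 and -0.03. Kars, the lysyl enzyme, was at 4300, 4252 and 4253 normalized counts with DMSO and at 3983, 3966 and 4004 with C28. Its groups were narrow and did not overlap, with a ratio of means of 0.933 (limma adjusted p 0.743, and 0.249 with the block). Farsa, the catalytic subunit of the phenylalanyl enzyme, was the lowest of the cytosolic set. It was at 2291, 2702 and 2718 with DMSO and at 2046, 2479 and 2517 with C28, lower in 3 of 3 pairs (log2 fold change -0.13, limma adjusted p 0.87, and 0.151 with the block). Farsb, the other subunit of that enzyme, was at 2730, 2668 and 2698 with DMSO and at 2425, 2761 and 2724 with C28, so the DMSO libraries were within the range of the C28 libraries.

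In the mitochondrial set Mars2 (ENSMUSG00000046994), the methionyl enzyme, fell with the block. It was at 1641, 1542 and 1547 normalized counts with DMSO and at 1335, 1348 and 1354 with C28. All C28 libraries were below all DMSO libraries and spread from 1335 to 1354. The means were 1577 ± 55.5 and 1346 ± 9.28 (SD, n = 3 each), a log2 fold change of -0.23 with an SE of 0.06, or 0.05 with the block. The limma adjusted p was 0.413 without the block and 0.035 with it, and it lay between 0.0598 and 0.293 with a pair left out.

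Of the other 15 mitochondrial genes 4 lay above 0 and 11 below. Pars2, the prolyl enzyme, had the lowest fold change of the 36 but wide scatter, at 208.5, 268.3 and 192.3 normalized counts with DMSO and 158.8, 193.2 and 216.9 with C28 (log2 fold change -0.23, limma adjusted p 0.863). Cars2, the cysteinyl enzyme, had the highest of its set, at 704, 825.9 and 725.1 with DMSO and 629.9, 885.3 and 841.8 with C28 (log2 fold change 0.05, limma adjusted p 0.986). Yars2, the tyrosyl enzyme, was lowest in C28 replicate 1, at 671.4, against 931.1 to 1156 in the other 5 libraries. Iars2, the isoleucyl enzyme, was the steadiest, at 2775 to 2865 with DMSO and 2745 to 2861 with C28, and its 95% interval ran from -0.15 to 0.12 on the log2 scale. The mitochondrial partners of the other risers did not pass in either fit. Aars2, the alanyl enzyme, was at 562.8, 679.4 and 699.3 with DMSO and at 497, 664.2 and 669.1 with C28, lower in 3 of 3 pairs with overlapping groups. Nars2, the asparaginyl enzyme, was lowest in C28 replicate 1 at 398.5, and its other libraries lay between 494.4 and 574.1. Sars2, the seryl enzyme, ran from 550 to 621.7 with DMSO and from 527.1 to 593.1 with C28. Tars2, the threonyl enzyme, was at 1213, 1244 and 1306 with DMSO and at 1135, 1207 and 1217 with C28, lower in 3 of 3 pairs. For most of the set the intervals were wider than for the cytosolic genes, with a median SE of 0.13 against 0.08 (limma without the block).

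**Figure D2:**
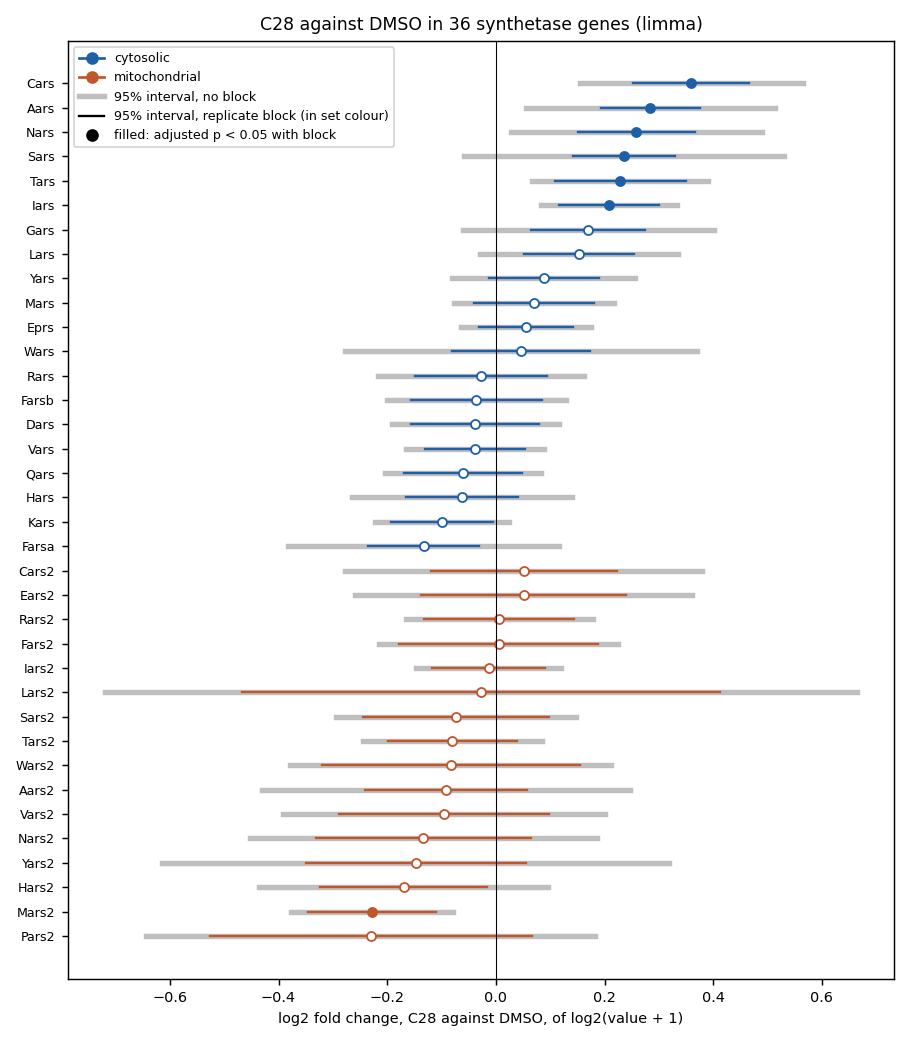
Log2 fold change of each of the 36 genes, C28 against DMSO, on the log2(value + 1) scale, with 95% intervals of limma without the block (grey) and with it (coloured). Filled points passed an adjusted p of 0.05 with the block: 6 blue points (cytosolic) to the right of 0 and 1 orange point (mitochondrial, Mars2) to the left.

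Lars2 (ENSMUSG00000035202), the mitochondrial leucyl enzyme, varied most between libraries. It was at 3133, 3342 and 6754 normalized counts with DMSO and at 3428, 5245 and 3715 with C28. DMSO replicate 3 and C28 replicate 2 stood above the other 4 libraries, so the log2 fold change of -0.03 had an SE of 0.30 and turned to 0.33 without DMSO replicate 3. Some transcripts that are not synthetases followed the same course and were picked after their values were seen. Gm23935 was at 4174, 4249 and 12256 with DMSO and at 5228, 7787 and 5784 with C28. CT010467.1 was at 6222, 8371 and 24890 with DMSO and at 8033, 25808 and 11349 with C28. Among 10571 other genes averaging at least 50, these 2 with Gm15564 and Gm24270 were the only ones with a Pearson correlation with Lars2 above 0.95 over the 6 libraries and an SD above 0.4 on the log2 scale. Their part in the Lars2 values was not tested.

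**Figure D3:**
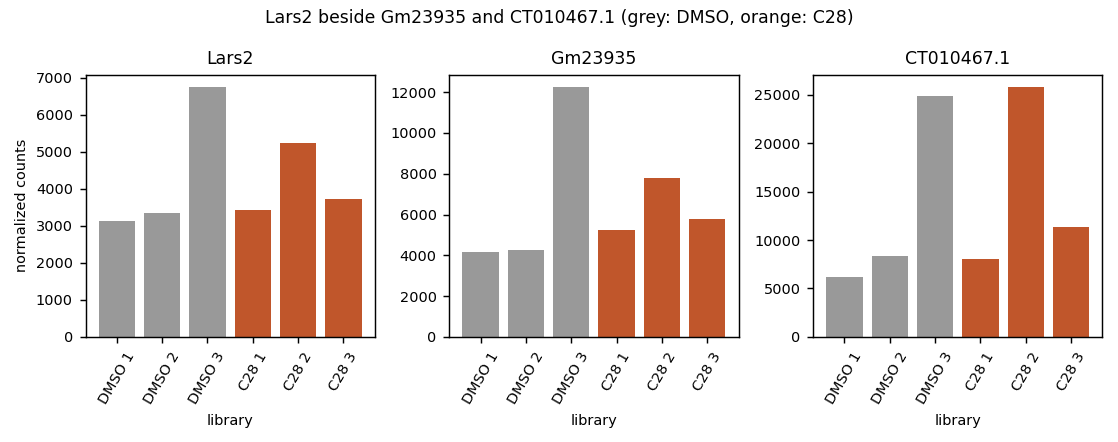
Normalized counts (vertical axes, from 0) of Lars2 and of Gm23935 and CT010467.1, genes with a similar course, in each library. DMSO replicate 3 is the highest DMSO library in all 3 panels and C28 replicate 2 the highest C28 library.

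Compared as sets, the cytosolic genes lay higher than the mitochondrial ones after C28. The median log2 fold change was 0.06 over the 20 cytosolic genes and -0.08 over the 16 mitochondrial genes, beside 0.004 over all 19054 genes tested. Single libraries moved these medians: the mitochondrial one was -0.01 without C28 replicate 1 and -0.13 without DMSO replicate 1. The cytosolic one was 0.11 without DMSO replicate 1 and 0.10 without C28 replicate 3. Of the cytosolic genes 12 lay above 0 (60%), of the mitochondrial genes 4 (25%), and 51.0% did so over all genes. In replicate pairs 1, 2 and 3 the cytosolic median difference was 0.04, 0.12 and 0.07, and the mitochondrial one -0.13, -0.03 and -0.03, so the order of the sets was the same in each pair. Higher in 3 of 3 pairs were 10 cytosolic and 0 mitochondrial genes, with 20.6% of all genes doing so. Lower in 3 of 3 pairs were 3 cytosolic and 4 mitochondrial genes, with 18.8% of all genes. Groups that did not overlap, with C28 higher, were found for 5 cytosolic genes (25%) and 0 mitochondrial genes, against 8.16% of all genes. With C28 lower they were found for Kars and Mars2, against 6.49% of all genes. These sets were described and not tested as lists.

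Summed over the set, the cytosolic genes took 107694, 98606 and 97664 normalized counts with DMSO and 112015, 111179 and 106418 with C28. That sum was higher with C28 in every pair, while DMSO replicate 1 exceeded C28 replicate 3. The mitochondrial genes took 15365, 16134 and 19325 with DMSO and 14375, 17706 and 16057 with C28. Without Lars2 the mitochondrial sum was 12232, 12793 and 12570 with DMSO and 10946, 12461 and 12343 with C28, lower with C28 in every pair.

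Within the cytosolic set, the enzymes of the multi-synthetase complex were compared with the free ones. The complex joins Eprs, Iars, Lars, Mars, Qars, Kars, Rars and Dars on scaffold proteins. Of these 8 genes 1, Iars, rose with the block, and their median log2 fold change was 0.01. Of the 12 genes outside the complex 5 rose, and their median was 0.13. Over all genes 2.55% rose in that fit. With edgeR and the block, Lars of the complex and Gars outside it rose as well, among 707 of 19054 genes that rose in all. By catalytic fold, 2 of 9 class I genes and 4 of 10 class II genes rose with the block, with medians of 0.07 and 0.07 (Eprs holds both and was left out). Neither the difference by complex nor that between the classes was tested.

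A direct comparison set each cytosolic gene against the mitochondrial gene of the same amino acid within a library. In 17 such comparisons the log2 ratio of cytosolic to mitochondrial was higher with C28 in 14 and lower in 3, with a median change of 0.22. It was higher in 3 of 3 same-numbered pairs in 8 of them: Aars, Cars, Iars, Mars, Nars, Sars, Tars and Yars, each against its own partner. All genes called with the block by limma, Mars2 included, are in these ratios, so the count largely repeats the single-gene calls. No share over other gene pairs was computed to set beside it. For Nars and Nars2 the log2 ratio changed by 0.52, 0.31 and 0.35 in the 3 pairs, the largest mean change, 0.39. For Aars and Aars2 it changed by 0.43, 0.35 and 0.35. For Mars and Mars2 it was 1.13, 1.17 and 1.16 with DMSO and 1.39, 1.53 and 1.43 with C28. In the fits of the single genes Mars differed by 0.07 and Mars2 by -0.23 on the log2 scale.

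The ratios of Iars to Iars2, Mars to Mars2 and Tars to Tars2 did not overlap between the groups. Each gave p = 0.1 by a two-sided exact permutation test of 3 against 3 libraries, the smallest p that the design allows, and 0.567 after Benjamini-Hochberg adjustment over the 17 comparisons. The ratio was lower with C28 for Farsa and Farsb to Fars2 and for Rars to Rars2. For Farsa it changed by -0.25, -0.09 and -0.07 in the 3 pairs. The ratio of Lars to Lars2 changed by -0.05, -0.41 and 1.00, the widest spread of the 17. Some comparisons share a gene (Eprs with Ears2 and Pars2, Fars2 with Farsa and Farsb), so they are not independent.

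**Figure D4:**
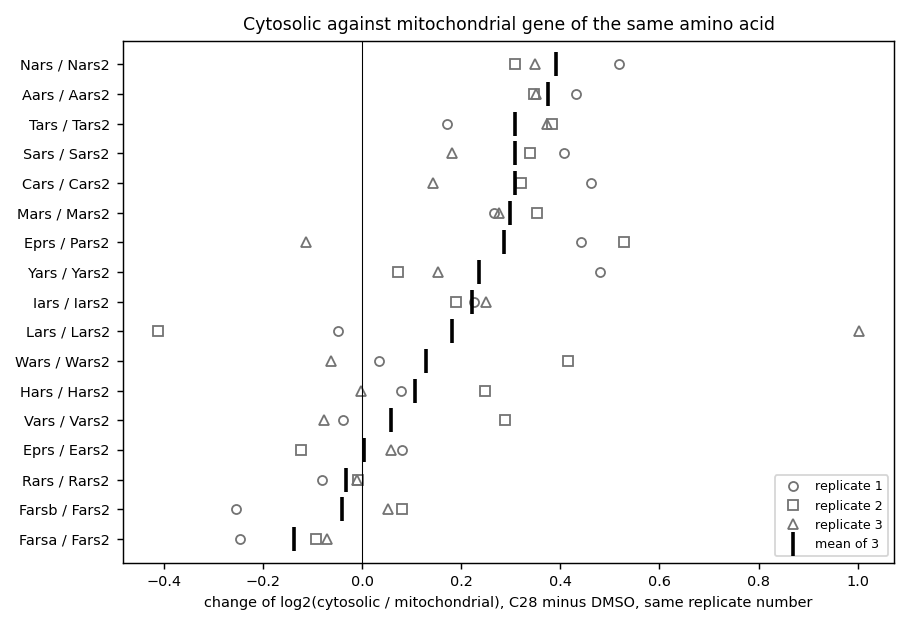
Change of the log2 ratio of the cytosolic to the mitochondrial gene of the same amino acid, C28 minus DMSO, for each replicate number (open symbols) and on average (bars), over 17 comparisons. In 14 the average lies to the right of 0, and Lars to Lars2 spreads from -0.41 to 1.00.

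The sets also differed between replicate numbers, in DMSO and in C28 libraries. Replicate 1 was the highest library of both groups for 9 cytosolic genes (Aars, Cars, Eprs, Gars, Lars, Nars, Sars, Vars and Wars) and for 0 mitochondrial genes, with 23.3% of all genes doing so. It was the lowest library of both groups for 9 of the 16 mitochondrial genes and for Farsa and Hars, with 25.3% of all genes. Wars, the tryptophanyl enzyme, showed this order too, and was not called in either fit (95% interval -0.28 to 0.37 on the log2 scale without the block). It was at 1270, 1017 and 1033 normalized counts with DMSO and at 1366, 1073 and 1003 with C28. The 4 fibroblast and feeder markers, none of them at 0, were also lowest in replicate 1 of each group. Their summed level ran from 184.2 to 603.6 with DMSO and from 204.4 to 521.1 with C28, and their part in the synthetase values was not tested. With pair 1 left out, limma with the block still called the 6 cytosolic risers, among 853 of 19054 genes called in all. With pair 2 or pair 3 left out it called 0 of them.

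**Figure D5:**
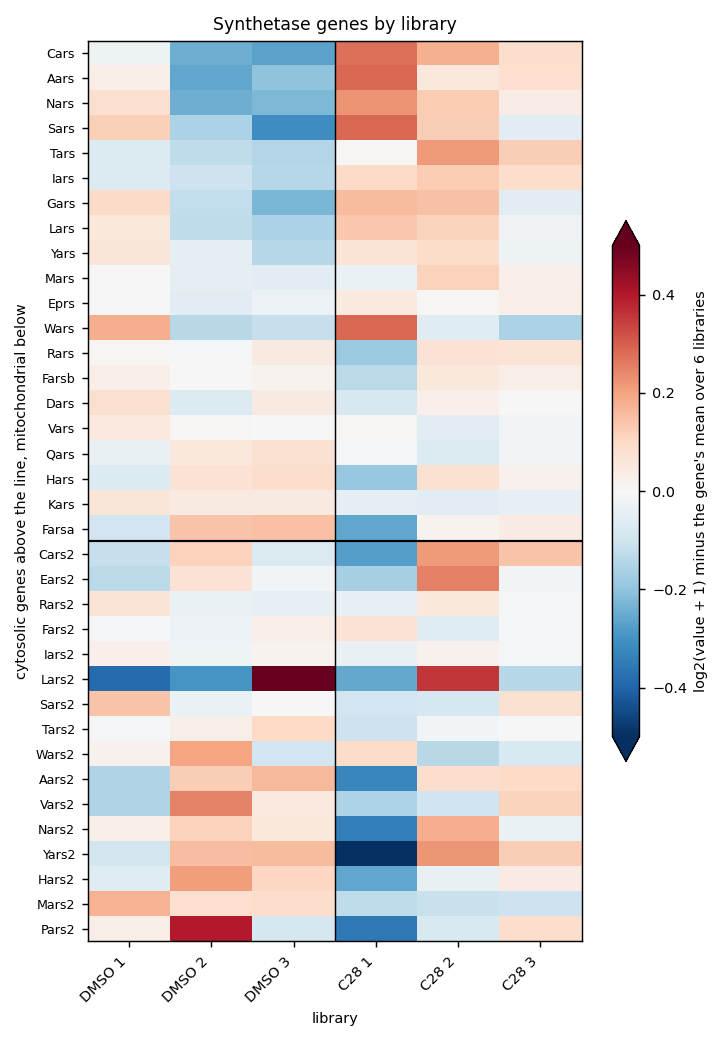
Level of each synthetase gene in each library as log2(value + 1) minus its mean over the 6 libraries (colour, saturated at the ends of the bar). The top 4 cytosolic rows are reddest in C28 replicate 1, several mitochondrial rows are bluest there, and Lars2 is dark red in DMSO replicate 3.

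Atf4 itself was at 7138, 8022 and 7164 normalized counts with DMSO and at 12112, 15190 and 12577 with C28, and Trib3, a known target of it, rose 4.44-fold (limma adjusted p 0.0365 and 0.00807 without the block). The rises of the synthetase genes were smaller than those of either. The log2 fold changes of Atf4 and Trib3 stayed within 0.73 to 0.90 and 1.99 to 2.28 with any 1 library left out. DESeq2 without the block gave these 2 genes adjusted p of 1.7e-09 and 3.65e-27. The limma calls depended on single libraries: in the fit without the block, the limma adjusted p of Atf4 reached 0.25 without DMSO replicate 3 and was over the threshold without any library but C28 replicate 1. That of Trib3 also exceeded it when DMSO replicate 3 (0.084), C28 replicate 2 (0.0676) or C28 replicate 3 (0.0696) was dropped. With the block both genes passed with every pair left out.

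Other genes of tRNA charging were taken from 7 lists of 44 genes, all of which passed the filter. Limma without the block called 0 of them, with 5 at an unadjusted p under 0.05 (7.83% of all genes), and edgeR without the block called 0. DESeq2 without the block called Impact and Ppp1r15a, both higher with C28, among 182 of 19054 genes called in all. With the block 2 rose and 3 fell (2.55% and 2.25% of all genes), and the median log2 fold change of the 44 was -0.06. Impact, which restrains GCN2, was at 2304, 2524 and 2488 normalized counts with DMSO and at 3426, 3291 and 3197 with C28. Its groups lay far apart, and it rose with the block (log2 fold change 0.44, limma adjusted p 0.00116, and 0.0784 without the block). Ppp1r15a, the stress-induced subunit of the phosphatase that restores eIF2, rose with the block from 455.3, 466.3 and 492.6 to 631.9, 683.5 and 582.8 (limma adjusted p 0.0118, and 0.261 without it). Eif2ak2, the eIF2 kinase that senses double-stranded RNA, fell with the block from 981.6, 808.8 and 880.1 to 796.9, 651.4 and 745.2 (limma adjusted p 0.0223, and 0.587 without it). Eif2ak4, the gene of GCN2, was at 450.8 ± 16.2 and 438.5 ± 36.8 (SD, n = 3 each) and was not called in either fit.

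The remaining calls were of tRNA processing. Ptrh2, a peptidyl-tRNA hydrolase of mitochondria, fell with the block from 711.4, 771.7 and 663.9 normalized counts to 524, 640.6 and 561.2 (limma adjusted p 0.0264, and 0.515 without it). Elac2, which trims the 3′ end of tRNA precursors, fell from 1837, 2330 and 2203 to 1514, 1947 and 2041 (limma adjusted p 0.0448, and 0.8 without it), and its groups overlapped. Of the 9 genes of end maturation and export 7 were lower in 3 of 3 pairs, against 18.8% of all genes. Limma called 1 of the 9 with the block and 0 without it. Replicate 1 was the lowest library of both groups for 7 of the 9, against 25.3% of all genes. Xpot, the exporter of tRNA from the nucleus, was at 5191, 5504 and 5200 with DMSO and 5446, 5937 and 5530 with C28. None of the 3 scaffold genes of the multi-synthetase complex and none of the 5 mitochondrial partner genes was called in either limma fit. With pair 1 left out, limma with the block called Impact, Eif2ak2 and Gcn1l1 of these 44. With pair 3 left out it called Impact (adjusted p 0.0296), and with pair 2 left out it called 0, Impact having an adjusted p of 0.0763.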

How the data were processed

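Signal values (normalized counts: reads on a gene divided by 1 size factor per library) were deposited by the authors with their log2 fold change and adjusted p-value for C28 against DMSO. Whole reads were recovered: 100% of values came out whole within 0.01. Bowtie2, Cufflinks 2.2.1 and mm9 are named, with no role, per the submitters' processing notes. The counting tool and its use of strand are not given, so overlapping genes may share reads. Groups and replicate numbers came from the titles.

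Limma 3.58.1 (R 4.3.3, intensity trend) was fitted on log2(value + 1), which understates changes of low genes, over the 19054 genes that reached 1 in 3 or more libraries. P-values are two-sided, with Benjamini-Hochberg adjustment. Deviations from group means correlated between same-numbered libraries at 0.84, 0.68 and 0.71 over 10572 genes averaging 50 or more, so the numbers were taken as pairs, from the data and not a label. Numbers 2 and 3 were less distinct from each other than from 1, with correlations of 0.54 and 0.41 between them. Alternatives were a replicate block, TMM scaling, other filters and pseudocounts, edgeR 4.0.16 and DESeq2 1.42.0 on recovered reads, and left-out libraries or pairs. Limma and edgeR were run on simulated counts, where the check was only that the known fold changes came back. Those counts held no replicate effect, so they do not show whether the calls with the block hold. The members and lists were chosen with earlier results of these data known. Synthetases past the threshold in either limma fit, those with the largest and smallest change and value in each set, mitochondrial partners of named cytosolic genes, called genes of the other lists, Atf4 and Trib3 were named by rule; the others, such as Gars, Lars, Kars, Yars2 and the genes set beside Lars2, were picked after their values were seen. Promoters came from RefSeq (GRCm38.p6). A gene of the related lists is not reported here.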

Additional observations from a re-analysis of the deposited data

How the results depend on the processing

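With the replicate block 6 cytosolic genes were called up and 1 mitochondrial gene down, with 485 genes up and 429 down in all. With edgeR and the block these counts were 8, 1, 707 and 625. DESeq2 without the block called 121 genes up and 61 down in all, 0 of them synthetases. With the block and pair 1 left out, 8 cytosolic genes were called up, with 438 genes up and 415 down in all. Without pair 2 the counts over all genes were 42 up and 8 down, and without pair 3 they were 142 and 65, with 0 synthetases in both. Leaving out 1 library without the block gave 0 to 21 genes up and 0 to 2 down. Without C28 replicate 2 limma called 0 genes, with 1204 at an unadjusted p under 0.05. The cytosolic median ran from 0.0467 to 0.112 and the mitochondrial median from -0.128 to -0.0143 (log2 scale), so neither changed sign.

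The 7 called synthetases kept their direction in every alternative. The sign of 17 genes turned when libraries were left out, and of none under another filter, pseudocount, scaling or tool. Leaving out 1 library, log2 fold changes ran from -0.0703 to 0.0233 for Farsb, -0.115 to 0.0162 for Hars, -0.0704 to 0.0578 for Rars, -0.0858 to 0.149 for Wars, -0.189 to 0.0493 for Aars2, -0.0422 to 0.203 for Cars2, -0.063 to 0.146 for Ears2, -0.0305 to 0.0369 for Fars2, -0.0281 to 0.00181 for Iars2, -0.228 to 0.326 for Lars2, -0.257 to 0.006 for Nars2, -0.0193 to 0.0412 for Rars2, -0.195 to 0.00442 for Vars2 and -0.294 to 0.0972 for Yars2. With the block and without pair 1 they turned to 0.0231 for Dars, 0.0317 for Farsb, 0.0531 for Rars, -0.0348 for Fars2, 0.0111 for Iars2, 0.00894 for Sars2 and 0.0144 for Yars2. Without pair 2 they turned to -0.0138 for Ears2, -0.0346 for Rars2, 0.0301 for Vars2 and 0.0449 for Wars2, and without pair 3 to -0.0301 for Cars2, 0.39 for Lars2 and -0.00959 for Rars2. Beyond the fewer libraries, the cause was not tested. Alternatives on the H3K27ac peaks were not run.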
